A study of Mus musculus with 7 samples.

Results

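The genes described here encode proteins that carry a cell from G2 through mitosis and cytokinesis, and they were followed in C3H10T1/2 cells exposed to purmorphamine or to vehicle. A list of 55 such genes was taken by gene symbol from the deposited count table, and all 55 were among its 18468 genes. C3H10T1/2 is an established line of mouse embryo fibroblasts, used as a model of mesenchymal progenitors, and purmorphamine is a small molecule that binds and activates Smoothened, the membrane protein through which Hedgehog signals. All cells were first kept without serum for 12 h, and serum was not returned afterwards. They then received either 0.02% DMSO as vehicle (3 libraries, replicates 2, 3 and 4) or 2 µM purmorphamine (4 libraries, replicates 5, 6, 7 and 8) for 48 h, after which total RNA was sequenced. The labels name no transgene, and 1 line at 1 dose and 1 time was examined. No source used here says whether the libraries came from separate cultures, so the p-values measure the spread between these libraries, which may be technical.

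The authors had resampled the reads to an equal number, and the counts per library accordingly ran from 14337225 to 14342154. Gli1, a direct target of Hedgehog signalling, had 12, 7 and 11 reads with DMSO and 2811, 3171, 2576 and 2522 with purmorphamine, so the labelled groups stood apart. The 6 mesenchymal markers were all present, with summed reads of 183211 to 189683 with DMSO and 145342 to 156346 with purmorphamine. They did not move together, since Vim and Col1a2 were lower (log2 fold changes of -0.96 and -0.23) and Pdgfra and Thy1 higher (0.76 and 0.74). Most markers of other cell types had few reads. The 4 leukocyte markers summed to 82 to 83 reads with DMSO and 56 to 80 with purmorphamine, with Ptprc at no more than 1 read. The 2 epithelial markers in the table summed to 14 to 22 and 111 to 136 reads, nearly all from Cdh1, and Krt8 had at most 1 read. The 4 endothelial markers summed to 779 to 820 and 1898 to 2154 reads, nearly all from Tek. Cdh5 had 0 reads in every vehicle library and 21 to 26 with purmorphamine, while Pecam1 stayed at 5 reads or fewer and Kdr at 4 or fewer. The part of these marker changes in the results below was not tested.

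Entry into mitosis is driven by the kinase Cdk1 bound to cyclin A or cyclin B, once Cdc25 phosphatases have removed its inhibitory phosphates. Condensin and topoisomerase II then compact and disentangle the chromosomes, kinesins build the spindle, and kinetochores attach the chromosomes to it. The spindle assembly checkpoint holds back the anaphase promoting complex until every chromosome is attached, after which separase opens cohesin and the central spindle directs cytokinesis. Many of these genes are transcribed as one programme late in the cell cycle, through the DREAM and MuvB complexes, B-Myb and FoxM1, acting at a promoter element called the cell cycle genes homology region (CHR) and at CCAAT boxes bound by NF-Y.

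Promoter stretches of 4 of the genes are shown because they carry both elements close to the start of transcription and span the range of rises. They run from the largest rise (Top2a) to the smallest (Cdk1), with Kif11 and Espl1 between them. Bub3, the gene that was lower, also carries both elements close to the start and is not shown. Each stretch is the 100 bases before the RefSeq start on GRCm38.p6, written 5′ to 3′ on the strand of the gene. Capitals mark the CHR letters TTTGAA or their reverse complement TTCAAA, and the CCAAT box or its reverse complement ATTGG. Top2a lies at chr11:99024190-99024289 on the minus strand, Cdk1 at chr10:69352913-69353012 on the minus strand, Kif11 at chr19:37376282-37376381 on the plus strand and Espl1 at chr15:102296193-102296292 on the plus strand.
Top2a: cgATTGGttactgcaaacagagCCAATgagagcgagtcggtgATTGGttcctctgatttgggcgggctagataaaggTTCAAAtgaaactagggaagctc
Cdk1: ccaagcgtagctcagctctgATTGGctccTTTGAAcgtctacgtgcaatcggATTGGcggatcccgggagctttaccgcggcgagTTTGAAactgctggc
Kif11: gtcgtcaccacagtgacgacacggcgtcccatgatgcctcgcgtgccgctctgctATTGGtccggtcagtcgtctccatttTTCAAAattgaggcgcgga
Espl1: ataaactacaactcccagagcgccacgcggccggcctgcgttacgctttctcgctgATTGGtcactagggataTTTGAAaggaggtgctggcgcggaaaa
In Top2a the CHR letters begin 23 bases before the start, behind 3 CCAAT boxes. Cdk1 holds CHR letters at 71 and 15 bases before the start, Kif11 at 19 and Espl1 at 27.

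Nearly all of the genes rose with purmorphamine. Of the 55, all of which passed the filter on low counts, 54 were higher and 1, Bub3, was lower at a Benjamini-Hochberg adjusted p under 0.2 in edgeR's quasi-likelihood test, the threshold that the study used. Across all 12388 genes tested, 31.4% were called higher and 31.1% lower by the same rule. At an adjusted p under 0.05 the count of higher genes was 53 of 55, against 23.2% of all genes tested. In 52 genes every purmorphamine library lay above every vehicle library, an order found in 29.1% of all genes tested. These orders were read from the deposited reads. The overlapping exceptions were Bub3, Cdca8 and Spc24, and in 0 of the 55 genes did every purmorphamine library lie below every vehicle library, against 20.4% of all genes tested.

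Most rises were modest in size. The median log2 fold change of the 55 genes was 0.55, with quartiles of 0.45 and 0.61, and the median over all genes tested was 0.00. Those that rose did so by 0.24 (Cdk1) to 0.95 (Top2a) on the log2 scale, with standard errors between 0.06 and 0.16. A rise of at least 1.5-fold was fitted for 21 genes, against 7.89% of all genes tested, and none reached 2-fold, against 3.2%. Together the 55 genes took 0.255% ± 0.0128 (SD, n = 3) of the reads with DMSO and 0.394% ± 0.0468 (SD, n = 4) with purmorphamine, a ratio of 1.54. The 95% Wilson interval of each library's share reached at most 0.0035 percentage points to either side, for counting error only. In RNA from whole cultures, a larger share of cells in G2 or mitosis and more of these transcripts per cell cannot be told apart.

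**Figure D1:**
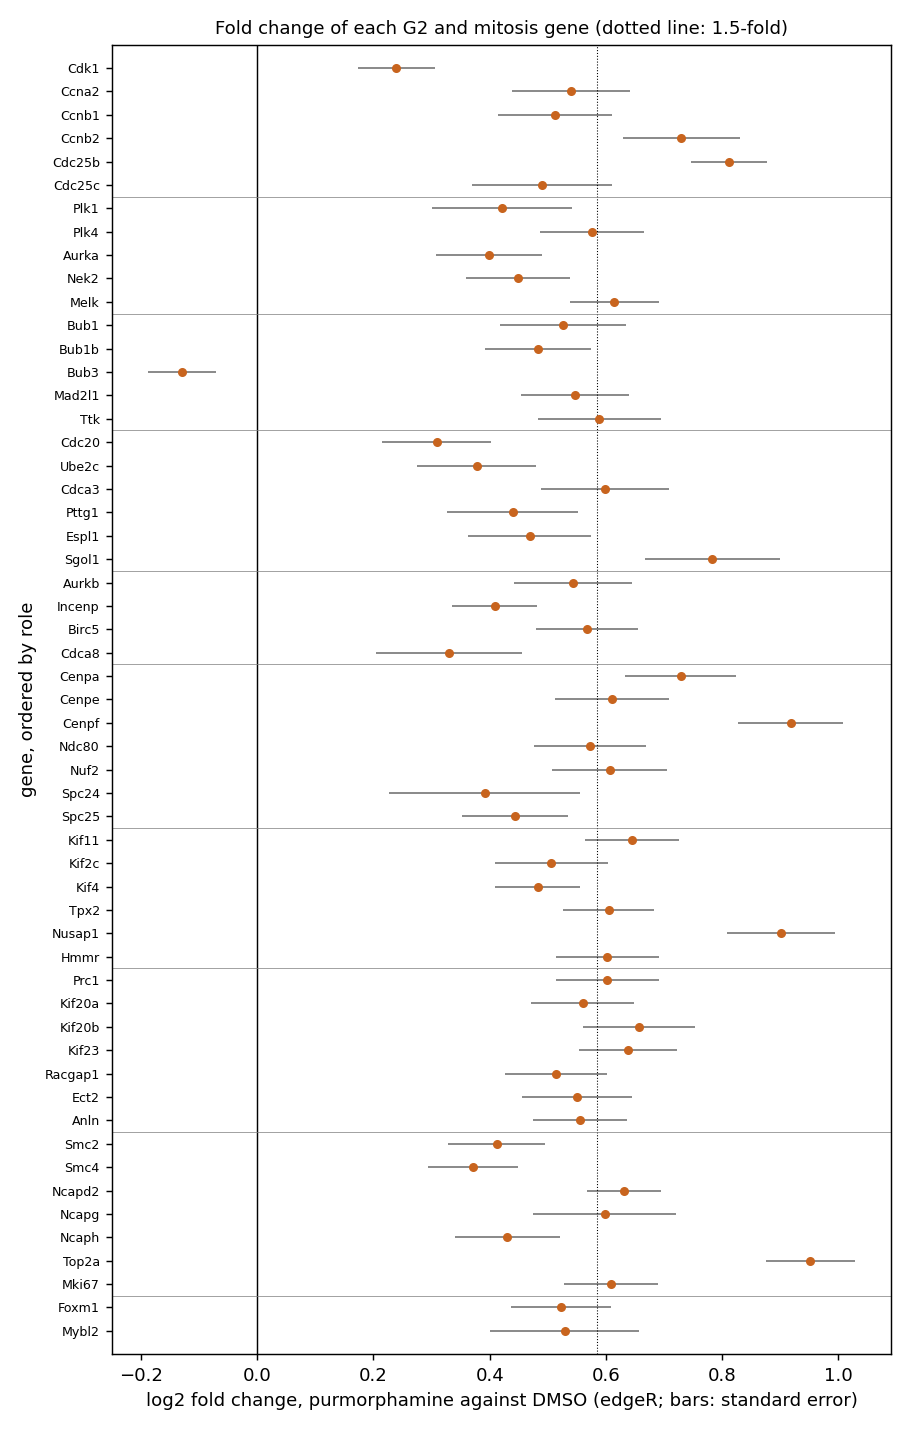
Log2 fold change of each of the 55 genes with purmorphamine relative to DMSO, with its standard error, grouped by role in mitosis. The values run from -0.13 for Bub3 to 0.95 for Top2a, and the median of 0.55 stands apart from the median of 0.00 over all genes tested.

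Among the genes of mitotic entry, all 6 rose, with a median log2 fold change of 0.53. Cdc25b, a phosphatase that activates Cdk1, had 469, 443 and 436 reads with DMSO and 796, 820, 752 and 892 with purmorphamine. Its groups lay far apart, and unlike most of the genes it was not lowest in purmorphamine replicate 6. The log2 fold change of Cdc25b was 0.81 ± 0.07 (SE; adjusted p = 2.22e-08 in edgeR's quasi-likelihood test). Ccnb2, which encodes cyclin B2, had 340, 320 and 335 reads with DMSO and 650, 482, 504 and 638 with purmorphamine. The purmorphamine libraries fell into a higher pair, replicates 5 and 8, and a lower pair, and both lay above all of the vehicle libraries (log2 fold change 0.73 ± 0.10). Cyclin A2 (Ccna2), cyclin B1 (Ccnb1) and the phosphatase gene Cdc25c rose by 0.54, 0.51 and 0.49. Cdk1 itself, the kinase that these proteins activate (ENSMUSG00000019942, chromosome 10, 69335146 to 69352938, minus strand, GRCm38), had 1639, 1578 and 1528 reads with DMSO and 2043, 1779, 1746 and 2150 with purmorphamine. The groups did not overlap, but the gap between them was narrow, and the log2 fold change of 0.24 ± 0.07 (SE; adjusted p = 0.00654 in edgeR's quasi-likelihood test) was the smallest rise of the 54.

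All 5 mitotic kinases rose, between 0.40 and 0.61 on the log2 scale. Melk, a kinase abundant in dividing cells, had 348, 320 and 298 reads with DMSO against 509, 471, 503 and 554 with purmorphamine. Its purmorphamine libraries were close to each other and all above the vehicle libraries (log2 fold change 0.61 ± 0.08, SE). Plk4, a kinase of centriole duplication, rose by 0.58 and Nek2, which separates centrosomes, by 0.45. Plk1 and Aurka, the kinases of centrosome maturation and spindle assembly, rose by 0.42 and 0.40.

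The spindle assembly checkpoint held the 1 gene that went the other way. Ttk, the kinase Mps1 that starts checkpoint signalling, rose by 0.59, Mad2l1, the Cdc20-binding protein Mad2, by 0.55, Bub1 by 0.53 and Bub1b, which encodes BubR1, by 0.48 on the log2 scale. Bub3, the adaptor that brings Bub1 and BubR1 to the kinetochore (ENSMUSG00000066979, chromosome 7, 131560222 to 131571895, plus strand, GRCm38), had 923, 935 and 985 reads with DMSO and 927, 884, 813 and 957 with purmorphamine. In these deposited reads the groups overlapped, since purmorphamine replicates 5 and 8 lay within the vehicle range. After scaling by the TMM factors that correct for library composition, as in the tests, they just ceased to overlap, with the highest purmorphamine library at 941.4 and the lowest vehicle library at 941.6. The log2 fold change of Bub3 was -0.13 ± 0.06 (SE; adjusted p = 0.0813 in edgeR's quasi-likelihood test), and an exact two-sided permutation test gave p = 0.0571, where the smallest p that 3 against 4 libraries allow is 0.0286. The call of Bub3 was lost with library totals in place of scaling factors (adjusted p = 0.276), without DMSO replicate 4 (0.294) and without purmorphamine replicate 7 (0.239). The ratio of Bub1b to Bub3 reads within a library was 0.521, 0.446 and 0.503 with DMSO and 0.786, 0.669, 0.743 and 0.794 with purmorphamine, so that the groups of this ratio did not overlap. This ratio was chosen after the values were seen and is given without a test.

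All 6 genes that act with the anaphase promoting complex or on cohesion rose. Sgol1 encodes shugoshin, the guardian of centromeric cohesin, and had 236, 223 and 230 reads with DMSO and 390, 319, 436 and 488 with purmorphamine. The vehicle libraries were nearly equal and the purmorphamine libraries spread widely above them (log2 fold change 0.78 ± 0.12, SE). Cdca3, a mitotic entry factor that is itself a substrate of the complex, rose by 0.60, separase (Espl1) by 0.47 and its inhibitor securin (Pttg1) by 0.44. The ubiquitin-conjugating enzyme Ube2c rose by 0.38. Cdc20, the activator of the complex, had 432, 436 and 395 reads with DMSO and 625, 506, 447 and 578 with purmorphamine. Its lowest purmorphamine library, replicate 7, lay just above the highest vehicle library, and the log2 fold change was 0.31 ± 0.09 (SE; adjusted p = 0.0123 in edgeR's quasi-likelihood test).

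The chromosomal passenger complex, which corrects wrong attachments through the kinase Aurora B, rose in all 4 subunits. Survivin (Birc5) rose by 0.57 and Aurora B (Aurkb) by 0.54 on the log2 scale. Incenp, the scaffold, had 504, 475 and 456 reads with DMSO and 703, 639, 581 and 701 with purmorphamine. Those groups were separate, and the log2 fold change was 0.41 ± 0.07 (SE). Cdca8, which encodes borealin, had 306, 254 and 249 reads with DMSO and 407, 290, 293 and 411 with purmorphamine. Here the groups overlapped, because vehicle replicate 2 lay above purmorphamine replicates 6 and 7. The log2 fold change of Cdca8 was 0.33 ± 0.13 (SE; adjusted p = 0.0396 in edgeR's quasi-likelihood test), whereas the exact permutation test gave p = 0.171.

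At the centromere and kinetochore all 7 genes rose, with a median log2 fold change of 0.61. Cenpf, a large protein of the outer kinetochore (ENSMUSG00000026605, chromosome 1, 189640606 to 189688086, minus strand, GRCm38), had 901, 917 and 820 reads with DMSO and 1794, 1361, 1827 and 1881 with purmorphamine. All 4 purmorphamine libraries were far above the vehicle libraries, and replicate 6 lay well below the other 3 (log2 fold change 0.92 ± 0.09, SE; adjusted p = 2.35e-07 in edgeR's quasi-likelihood test). Cenpa, the histone H3 variant that marks centromeres, had 289, 260 and 264 reads with DMSO and 507, 403, 424 and 522 with purmorphamine. Its groups were well apart, with a log2 fold change of 0.73 ± 0.09 (SE). The kinesin Cenpe rose by 0.61. The 4 subunits of the Ndc80 complex, which binds microtubule ends, rose by 0.61 (Nuf2), 0.57 (Ndc80), 0.44 (Spc25) and 0.39 (Spc24). Spc24 had few reads, 86, 68 and 80 with DMSO and 131, 99, 77 and 116 with purmorphamine, and replicate 7 lay within the vehicle range. Its adjusted p was 0.0609 in edgeR's quasi-likelihood test and 0.223 without DMSO replicate 3, and the exact permutation test gave p = 0.171.

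Of the spindle kinesins and microtubule binders, all 6 rose. Nusap1, which bundles spindle microtubules, had 636, 546 and 578 reads with DMSO and 1137, 948, 1102 and 1341 with purmorphamine. Every purmorphamine library was clear of the vehicle range (log2 fold change 0.90 ± 0.09, SE; adjusted p = 4.33e-07 in edgeR's quasi-likelihood test). Kif11, the motor Eg5 that pushes spindle poles apart, had 889, 835 and 879 reads with DMSO and 1405, 1164, 1450 and 1587 with purmorphamine. Tpx2, the activator of Aurora A, had 1114, 1003 and 997 reads with DMSO and 1643, 1401, 1596 and 1885 with purmorphamine. Both showed separate groups with replicate 6 lowest and replicate 8 highest, and their log2 fold changes were 0.61 ± 0.08 for Tpx2 and 0.64 ± 0.08 for Kif11 (SE). Hmmr, which anchors spindle microtubules, rose by 0.60, the depolymerizing kinesin Kif2c by 0.51 and the chromokinesin Kif4 by 0.48.

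All 7 genes of the central spindle and cytokinesis rose within a narrow span, from 0.51 to 0.66 on the log2 scale. Kif20b, a kinesin of late cytokinesis, had 686, 552 and 575 reads with DMSO and 1031, 797, 1014 and 1097 with purmorphamine. Kif23, the motor subunit of centralspindlin, had 516, 534 and 484 reads with DMSO and 843, 697, 800 and 947 with purmorphamine. Both genes had their lowest purmorphamine library in replicate 6, still above all vehicle libraries, and their log2 fold changes were 0.66 ± 0.10 and 0.64 ± 0.08 (SE). Anln encodes anillin, a scaffold of the contractile ring, and had 1922, 1824 and 1730 reads with DMSO and 2875, 2304, 2725 and 3182 with purmorphamine. It followed the same order of libraries (log2 fold change 0.56 ± 0.08, SE). The midzone bundler Prc1 rose by 0.60, the kinesin Kif20a by 0.56, Ect2, which starts furrowing at the cell equator, by 0.55 and its partner Racgap1 by 0.51.

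The 7 genes of chromosome compaction included the largest rise of all. Top2a, topoisomerase II alpha (ENSMUSG00000020914, chromosome 11, 98992943 to 99024189, minus strand, GRCm38), had 3848, 3506 and 3385 reads with DMSO and 7374, 6032, 7156 and 8050 with purmorphamine. Even the lowest purmorphamine library lay far above the highest vehicle library. The mean rose from 3580 ± 240.1 (SD, n = 3) to 7153 ± 839 (SD, n = 4), and the log2 fold change was 0.95 ± 0.08 (SE; adjusted p = 2.12e-08 in edgeR's quasi-likelihood test). Mki67, the Ki-67 protein that coats mitotic chromosomes and serves as a proliferation marker, rose by 0.61. The condensin subunits all rose. Ncapd2 rose by 0.63, Ncapg by 0.60 and Ncaph by 0.43, all 3 of them subunits of condensin I. The ATPases Smc2 and Smc4, which condensin I shares with condensin II, rose by 0.41 and 0.37. The differences among these subunits were not tested.

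Both transcription factors of the programme rose. Foxm1 had 426, 367 and 379 reads with DMSO and 614, 545, 508 and 654 with purmorphamine. The groups were separate (log2 fold change 0.52 ± 0.09, SE), although exons of Foxm1 overlap those of Tex52 on the same strand in the annotation, so its count is less certain. Mybl2, which encodes B-Myb, had 55, 64 and 63 reads with DMSO and 92, 87, 89 and 94 with purmorphamine. The purmorphamine libraries were nearly equal, with a log2 fold change of 0.53 ± 0.13 (SE; adjusted p = 0.00273 in edgeR's quasi-likelihood test).

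Unequal rises changed the proportions between genes within a library. For each read of Cdk1 there were 2.35, 2.22 and 2.22 reads of Top2a with DMSO and 3.61, 3.39, 4.10 and 3.74 with purmorphamine. For Cenpf the ratio to Cdk1 was 0.556 ± 0.0229 (SD, n = 3) with DMSO and 0.891 ± 0.116 (SD, n = 4) with purmorphamine. These ratios joined genes from either end of the range of fold changes and are a description without a test. Levels were also put on a scale of reads per kilobase of exon, with the exons of all annotated transcripts of a gene merged. A ranking on this scale can depend on that choice of length. The level with DMSO was highest for Smc4 (498 reads per kb), Top2a (397) and Cdk1 (321) and lowest for Mybl2 (13.1), Espl1 (22.4) and Cdc25c (23.9). With purmorphamine the level of Top2a, at 794 reads per kb, passed that of Smc4, at 665, and Smc2, at 406, passed Cdk1, at 391. The gap between Smc2 and Cdk1 with purmorphamine was smaller than the spread between libraries.

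The purmorphamine libraries differed among themselves in a way that most of these genes shared. Reads of the 55 genes summed to 38656, 36151 and 35060 in vehicle replicates 2, 3 and 4, and to 58507, 48029, 55361 and 64111 in purmorphamine replicates 5, 6, 7 and 8. As a median over the 55 genes, the level relative to the vehicle mean was 0.62, 0.29, 0.51 and 0.75 on the log2 scale in purmorphamine replicates 5 to 8, and 0.09, -0.04 and -0.06 in the vehicle libraries. Replicate 8 was the highest purmorphamine library in 45 of the 55 genes and replicate 6 the lowest in 46, against 22.1% and 30.7% of all genes tested. Over all genes tested, the same medians lay between -0.01 and 0.01 in every library. That narrow range is largely set by the TMM scaling, which centres most genes between libraries. Without replicate 8 the median log2 fold change of the 55 genes was 0.48, and without replicate 6 it was 0.64. The count of higher genes stayed at 54 in both cases. Lists of related genes showed the order in part. Replicate 8 was highest and replicate 6 lowest among the purmorphamine libraries in 31 and 27 of 42 other mitotic genes. The same counts were 20 and 13 of 26 genes of S phase, and 6 and 10 of 11 genes of cohesin. For DREAM, MuvB and Rb1 they were 4 and 7 of 12 genes. For the anaphase promoting complex and its regulators they were 5 and 5 of 15. The genes are not independent of each other in this respect, since they were measured in the same 7 libraries.

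**Figure D2:**
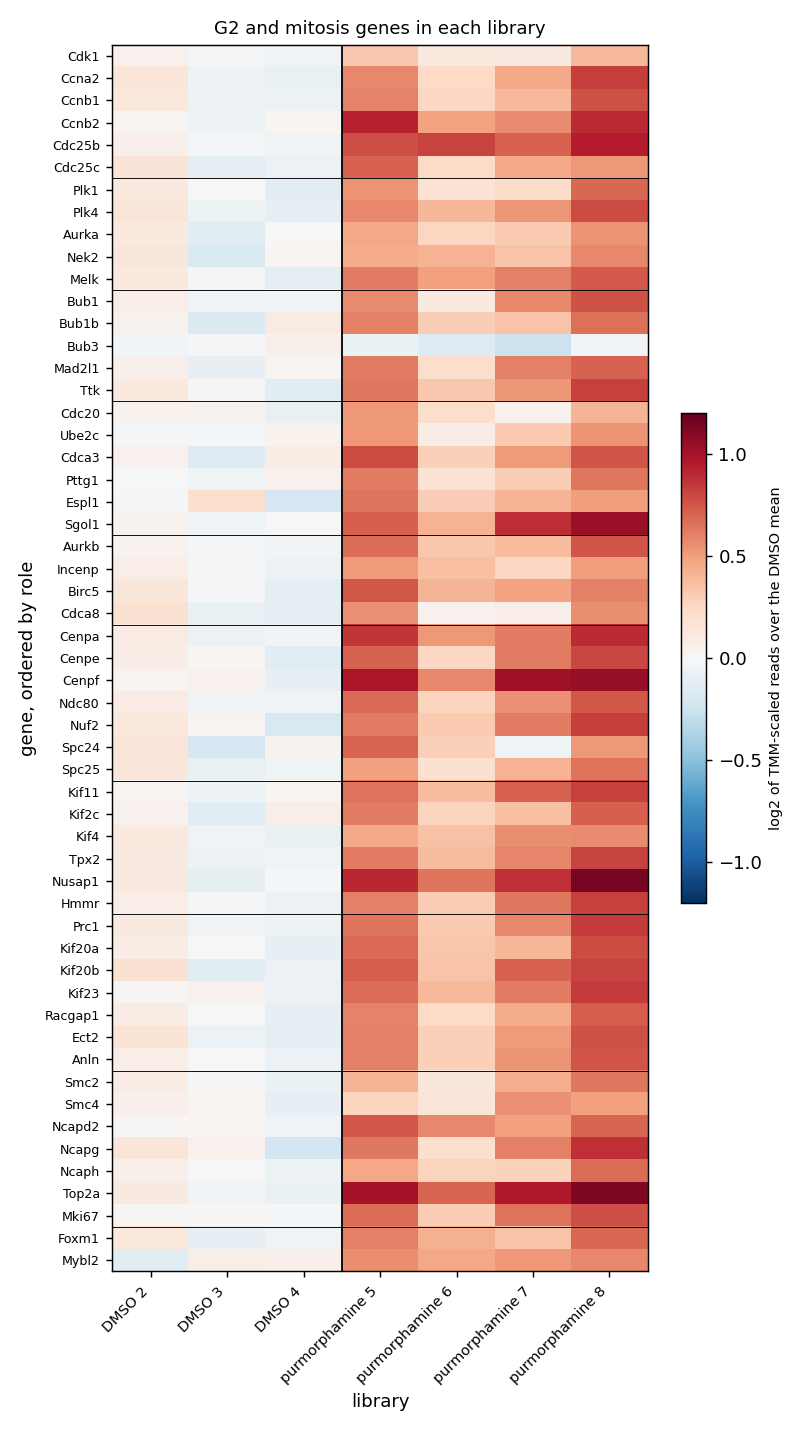
Log2 level of each of the 55 genes in each of the 7 libraries relative to the mean of the 3 DMSO libraries, in order of role. The purmorphamine columns are raised at nearly all genes, palest in replicate 6 (median 0.29) and strongest in replicate 8 (median 0.75).

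**Figure D3:**
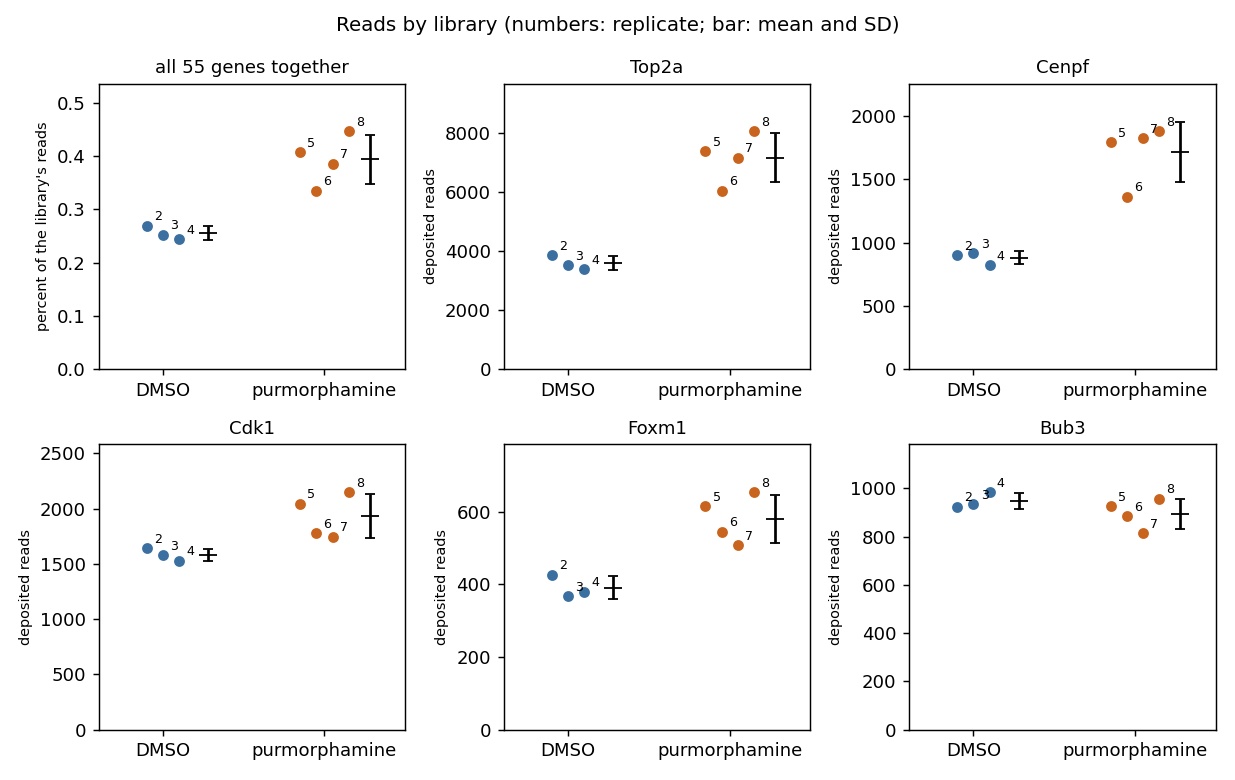
Deposited reads per library for selected genes, with the mean and SD of each group. Top2a moves from 3385 to 3848 reads with DMSO to 6032 to 8050 with purmorphamine, whereas the groups of Bub3 overlap.

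Genes that work beside the 55 were read from lists of related genes. Of 47 other mitotic genes, 42 were in the table and tested, of which 36 were higher and 2 lower, with a median log2 fold change of 0.53. Pkmyt1, the kinase that holds Cdk1 inactive, rose from 37.3 ± 3.21 (SD, n = 3) to 70.5 ± 7.42 (SD, n = 4) reads and Aspm, a spindle pole protein, from 548 ± 31.6 to 1007 ± 126 reads. The lower genes were Cks1b, a Cdk-binding subunit, with a log2 fold change of -0.45, and Zwint, a kinetochore protein, with -0.09. For Zwint the groups overlapped in the deposited reads (adjusted p = 0.0981 in edgeR's quasi-likelihood test). A list of 15 genes held core subunits of the anaphase promoting complex, its activator Fzr1, its inhibitor Fbxo5 and the ubiquitin-conjugating enzyme Ube2s. Of these, 3 were higher and 3 lower, and the median log2 fold change was 0.01. Among the 13 without Fbxo5 and Ube2s, 2 were higher and 3 lower. Fbxo5 rose by 0.52. The core subunits went both ways, with Anapc11 (0.29) and Anapc5 (0.15) higher and Cdc16 (-0.38), Anapc4 (-0.27) and Cdc26 (-0.12) lower. For Cdc26 the groups overlapped in the deposited reads (adjusted p = 0.189 in edgeR's quasi-likelihood test).

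For cohesin, 6 of 11 genes were higher and 1 lower, with a median log2 fold change of 0.09. Esco2, the acetyltransferase that locks cohesin in S phase, rose by 0.86 and Rad21, the subunit that separase cleaves, by 0.26. The release factor Wapal had a log2 fold change of -0.16, and its groups overlapped in the deposited reads. Of 12 genes, namely DREAM and MuvB subunits and the related Rb1, 6 were higher and 2 lower, with a median of 0.12. Rbl1, the pocket protein p107, rose by 0.33 and Lin54, the MuvB subunit that contacts the CHR, by 0.24, while the MuvB subunit Rbbp4 (-0.20) and Rb1 (-0.16) were lower. For Rb1 the groups overlapped in the deposited reads (adjusted p = 0.0719 in edgeR's quasi-likelihood test), as did those of Rbl1. Of 26 genes of S phase, 20 were higher and 1 lower, with a median of 0.35. The largest rises there, 0.52 in both Ccne2 and Cdc45, were below the median of the 55 genes. The lower gene was Ccne1, with a log2 fold change of -0.31 ± 0.17 (SE; adjusted p = 0.148 in edgeR's quasi-likelihood test). Its groups overlapped, at 146, 145 and 115 reads with DMSO and 115, 85, 93 and 158 with purmorphamine. All of the counts by list are to be read against 31.4% higher and 31.1% lower among all genes tested, and differences between the lists were not tested.

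**Figure D4:**
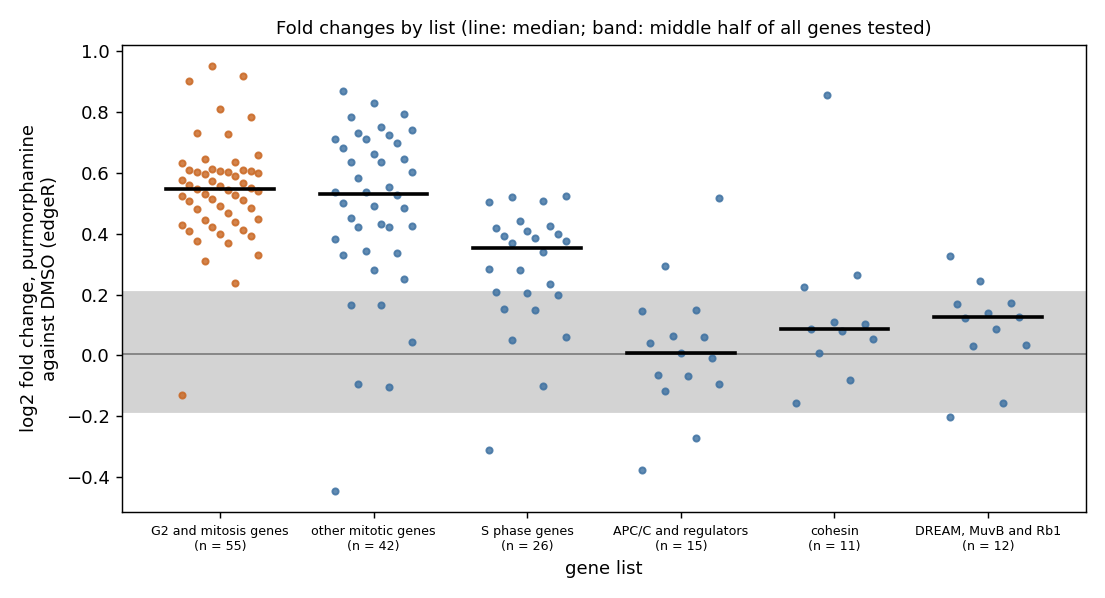
Log2 fold change of every tested gene in the G2 and mitosis list and in the lists of related genes, 1 point for each gene, with the median of each list. The medians are 0.55 for the 55 genes, 0.53 for other mitotic genes, 0.35 for S phase genes and 0.01 for the anaphase promoting complex and its regulators.

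Promoter windows from 250 bases before to 50 bases after the RefSeq start were matched for 46 of the 55 genes. Smc4, Tpx2, Aurkb, Incenp, Cdc25c, Ccna2, Kif20a, Spc24 and Foxm1 had no entry. On either strand, the CHR letters TTTGAA stood in 31 of the 46 windows (67.4%), in 11.4% of the 9601 windows of genes tested and in 18.1% of all 27025. Within 50 bases of the start the shares were 60.9%, 2.8% and 4.92%. The letters CCAAT stood in 33 windows (71.7%), against 39.3% of genes tested and 37.9% of all, and the CHR and CCAAT letters can share at most 1 base. Both elements together were present in 27 windows (58.7%), against 4.83% and 7.12%. The letters GACCACCCA, the site for Gli factors, stood in 1 of the 46 windows (2.17%), that of Espl1, and in 0.208% of windows of genes tested. A match of letters is a description and does not show that a factor was bound.

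**Figure D5:**
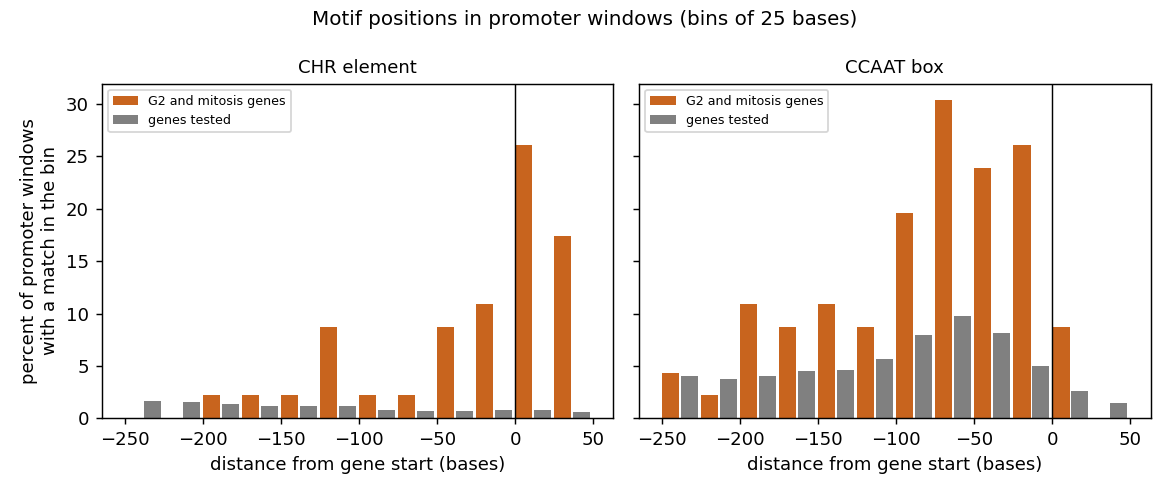
Share of promoter windows holding the CHR letters or the CCAAT letters, by distance from the RefSeq start, for the 46 matched G2 and mitosis genes and for the 9601 genes tested with a window. In bins of 25 bases, the CHR letters stand in 26.1% of the 46 windows just after the start, against 0.771% of genes tested, and the CCAAT letters in 30.4% from 75 to 50 bases before it, against 9.74%.

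Presence of the CHR letters did not separate larger from smaller rises within the list. The 31 genes with them had a median log2 fold change of 0.56, from -0.13 to 0.95, and the 15 without them had a median of 0.57, from 0.43 to 0.90. The window of Bub3 held both elements, as did those of Top2a and Cdk1. Among the other mitotic genes, 18 of 33 windows held the CHR letters (54.5%) and 20 the CCAAT letters (60.6%), whereas among S phase genes 3 of 21 held the CHR letters (14.3%) and 13 the CCAAT letters (61.9%).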

How the data were processed

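RNA of C3H10T1/2 cells was sequenced by the authors in 7 libraries made with a stranded kit, and the deposited counts are labelled as sense. Per the submitters' processing notes, STAR 2.5.3a and the mm9 build were used; the annotation was not given in the sources used here. Reads were resampled by the authors to 1 common depth, and the gene counts deposited are whole numbers made from the resampled reads. Resampling discards reads and leaves library totals without information on the original depth. Each library held between 14337225 and 14342154 counts.

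All genes were fitted with edgeR 4.0.16 in R 4.3.3 (TMM factors, filterByExpr with a minimum count of 10 and a total of 15, quasi-likelihood test, 3 DMSO against 4 purmorphamine libraries, no covariates), which left 12388 genes. P-values were adjusted by Benjamini-Hochberg over all of these, and a gene was called under 0.2. Log2 fold changes are scaled by TMM, whereas reads and their ratios are as deposited. Exact two-sided permutation tests over libraries, on log2 of TMM-scaled counts with 1 added, were computed for each of the 55 genes. They are given where the adjusted p and the overlap of groups were at odds, and for some other genes beside Bub3. DESeq2 1.42.0 and limma 3.58.1 (voom) were alternatives. The fit was tested on simulated counts. Replicate pairs within a group differed by more than sampling noise.

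The 55 genes and the related lists were chosen with earlier results of these data known. Genes given in every library were the 10 largest changes (mean count of 50 or more), the gene with the most reads in each role, and any called against the rest; Mybl2, Cdca8 and Spc24 were added after their values were seen. Exon lengths are from GENCODE M21 (GRCm38), and promoter windows are from RefSeq (GRCm38.p6), the first listed for each gene. List genes absent from the table, such as Bora and Ska3, were not analysed here.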

Additional observations from a re-analysis of the deposited data

Results flagged for a closer look

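The 4 purmorphamine libraries were examined in 75 genes, the 55 and some others, but not every gene named in the text. Their TMM-scaled reads were searched for 1 library far from the others, by the gap to its nearest neighbour as a fraction of the range of the group. Chance flags about 1 in 20 groups, or 3.75 of 75, and 2 were found. Cenpf had a fraction of 0.842, with replicate 6 at 1336 scaled reads below 1769, 1816 and 1850. Fbxo5, the inhibitor of the anaphase promoting complex, had a fraction of 0.883, with replicate 8 at 412 scaled reads above 298, 311 and 306. Replicates 6 and 8 are also those that most of the 55 genes had as lowest and highest purmorphamine library.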

How the results depend on the processing

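Over 13 refits (other scaling, test or filter on low counts, and each of the 7 libraries left out), the 715 values of single genes kept their direction, and 711 kept their side of the threshold. The exceptions were Spc24 without DMSO replicate 3 (log2 fold change 0.30, adjusted p = 0.223) and Bub3 with library totals alone (-0.08), without DMSO replicate 4 (-0.09) and without purmorphamine replicate 7 (-0.08). The count of higher genes was 53 to 54 with a library left out, and that of lower genes 0 to 1. The lower count was also 0 with library totals alone, where edgeR gave 0 lower genes at an unadjusted p under 0.05. DESeq2 and limma-voom, which were run with scaling factors, each kept Bub3 at an adjusted p under 0.2. At an unadjusted p under 0.05, DESeq2 gave 0 lower genes and limma-voom gave 1. The lower count was 0 as well at an adjusted p under 0.05 and with a 1.5-fold minimum. That minimum, which can only lower a count, left 21 higher genes, 17 other mitotic genes and 0 S phase genes. At an unadjusted p under 0.05 it left 0 S phase genes with all libraries. It left 2 without DMSO replicate 2, 1 without purmorphamine replicate 6 and 2 without purmorphamine replicate 7. The median of the 55 genes lay between 0.48 and 0.64 with a library left out. Library totals alone moved the median of all genes by 0.05 and the share of calls that were higher from 50.2% to 59.5%. The cause of the other changes was not tested. No paired analysis was possible because DMSO replicates are numbered 2 to 4 and purmorphamine replicates 5 to 8. Resampled counts limit precision most for genes under 100 reads, such as Mybl2 and Spc24.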

Other observations

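Genes outside every list were grouped by the CHR letters after the data had been seen, as a description. Of 194 tested genes with TTTGAA within 50 bases of the RefSeq start, 41.2% were higher with purmorphamine and 25.3% lower, with a median log2 fold change of 0.06. Among the 88 that also held CCAAT letters, the shares were 43.2% and 22.7%. Of 8384 tested genes without CHR letters near the start, 30.5% were higher and 32.2% lower, and the median was 0.00. The group with the letters still held genes of the cell cycle. Kntc1, a kinetochore protein of the checkpoint, went from a mean of 332 to 624 reads, E2f8, a repressor of the E2F family, from 126 to 239 reads, and Oip5, a centromere protein that loads Cenpa, from 65 to 118 reads. Other genes of the group rose by more. Stk17b and Net1 rose by 0.93 and 0.89 on the log2 scale, against 0.88 for E2f8, 0.86 for Kntc1 and 0.81 for Oip5. The largest rise was in Fbxo48, an F-box gene, from 35, 27 and 37 reads with vehicle to 90, 83, 98 and 86 with purmorphamine.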
